A study of Mus musculus with 9 samples.

Results

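The proteasome genes of these libraries were the 44 genes whose symbol is Psma, Psmb, Psmc, Psmd, Psme or Psmf followed by a number, out of 55414 genes listed. They were picked by name alone and comprise Psma1 to Psma8, Psmb1 to Psmb11, Psmc1 to Psmc6, Psmd1 to Psmd14 (Psmd5, Psmd9 and Psmd10 among them), Psme1 to Psme4 and Psmf1. In each of the 3 comparisons 43 of them had enough counts to be tested, and Psmb11 did not.

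RNA was sequenced from lung alveolus cells of wild-type C57BL/6J male mice, cut from frozen tissue under a microscope by laser capture microdissection and described by the labels as mainly fibroblasts. The PDK4-IN group (3 libraries) came from mice that aged naturally to 20 months and then received PDK4-IN, an anthraquinone derivative that inhibits the pyruvate dehydrogenase kinase PDK4, once every 2 weeks for 4 months until examination at 24 months. The Aged group (3 libraries) received vehicle on the same schedule, and the Young group (3 libraries) came from young mice whose age the labels do not give. Captured cells were combined before RNA extraction and nothing states that replicates are separate animals, so p-values measure the spread between libraries, which may be technical. The sheet names stored inside the deposited tables speak of bleomycin and of another compound, whereas the columns and labels name Young, Aged and PDK4-IN, and the groups are taken here as the columns name them.

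The proteasome degrades proteins that carry ubiquitin chains. Its barrel-shaped core has outer rings of alpha subunits (Psma genes) and inner rings of beta subunits (Psmb genes), of which Psmb5, Psmb6 and Psmb7 cut the chain. In cells exposed to interferon gamma, and constitutively in many blood-lineage cells, Psmb8, Psmb9 and Psmb10 take the places of Psmb5, Psmb6 and Psmb7 and form the immunoproteasome, known for making peptides for MHC class I. A regulatory cap of ATPases (Psmc genes) and non-ATPase subunits (most Psmd genes) binds and unfolds the substrate, and the PA28 activator of Psme1 and Psme2 can bind the core in its place.

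Psmb8 and Psmb9 were the 2 members called higher in Aged than in Young, so their upstream sequence is shown beside that of Psmb5, the constitutive partner of Psmb8. In gene order on chromosome 17, Psmb9 is followed by Tap1, Psmb8 and Tap2, inside the MHC region, while Psmb5 lies next to Psmb11 on chromosome 14. The sequences are the 250 bases before the RefSeq start site in build GRCm38.p6, at chr17:34197945-34198194 (plus strand), chr17:34187331-34187580 (minus strand) and chr14:54617996-54618245 (minus strand), and capitals mark matches to the motifs searched.
Psmb8: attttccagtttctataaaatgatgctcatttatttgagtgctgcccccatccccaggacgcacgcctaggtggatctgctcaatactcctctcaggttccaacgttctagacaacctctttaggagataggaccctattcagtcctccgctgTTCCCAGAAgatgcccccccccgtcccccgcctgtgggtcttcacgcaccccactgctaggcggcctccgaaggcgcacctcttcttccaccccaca
Psmb9: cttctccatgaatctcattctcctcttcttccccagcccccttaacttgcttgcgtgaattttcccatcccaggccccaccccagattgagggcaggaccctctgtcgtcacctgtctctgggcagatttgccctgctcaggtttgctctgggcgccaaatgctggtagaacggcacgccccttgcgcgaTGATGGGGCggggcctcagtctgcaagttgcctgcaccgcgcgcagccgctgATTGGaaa
Psmb5: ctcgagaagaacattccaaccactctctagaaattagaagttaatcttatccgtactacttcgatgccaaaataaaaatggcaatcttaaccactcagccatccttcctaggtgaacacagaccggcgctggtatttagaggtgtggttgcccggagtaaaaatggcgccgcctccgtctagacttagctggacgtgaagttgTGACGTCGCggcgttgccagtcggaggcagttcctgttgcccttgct
The capitals are a gamma-activated site (TTCNNNGAA) for Psmb8, the core of an antioxidant response element (TGANNNNGC) and a CCAAT box on the reverse strand for Psmb9, and the antioxidant response element core for Psmb5, and no printed match overlaps another. Psmb8 and Psmb5 each also held 1 antioxidant response element core after the start site and outside the printed bases. RefSeq windows of 250 bases before to 50 bases after the start were found for 37 of the 44 genes, and both strands were searched. The gamma-activated site was in 2 of these 37 genes (5.41%, Psmb8 and Psmd2), against 9.55% of all 27025 genes with a window. The core GAAANNGAA of an interferon-stimulated response element was in 6 (16.2%, against 9.76%), namely Psmb3, Psmb4, Psmc2, Psmd4, Psmd9 and Psme1. TGANNNNGC was in 21 (56.8%, against 45.0%) and CCAAT in 14 (37.8%, against 41.1%). The Psmb10 window held no match to the 4 motifs.

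Library totals ran from 19456303 to 26660364 counts. Of 12 fibroblast markers 11 were tested. Col1a1, a collagen chain, was at 2235 to 3172 counts per 1000000 counts of the library (CPM), whereas Fap was at 0.638 to 1.66 CPM and Tcf21 at no more than 0.514 CPM, with 0 counts in the Aged libraries. In Aged against Young 7 of these markers fell, among them Pdgfrb (−0.97 on the log2 scale) and Col1a1 (−0.47). The 2 that rose were Dcn (1.04) and Lum (0.26). In PDK4-IN against Aged 5 rose and 2 fell. Of all genes tested for Aged against Young, 21.4% were called higher and 19.0% lower. For PDK4-IN against Aged these shares were 23.9% and 25.7%. The 5 smooth muscle markers all fell with age, and summed to 370 to 426 CPM in PDK4-IN, 376 to 394 CPM in Aged and 1879 to 2078 CPM in Young libraries. Summed over 16 leukocyte and myeloid markers, the level was 168 to 186 CPM in PDK4-IN libraries, 5420 to 5487 CPM in Aged libraries and 49.8 to 61.0 CPM in Young libraries. All 16 were called higher in Aged than in Young and lower in PDK4-IN than in Aged, and Adgre1, the macrophage antigen F4/80, was at 7.52 to 7.84, 498 to 512 and 0.232 to 0.565 CPM in PDK4-IN, Aged and Young. The 12 T and NK cell markers summed to at most 3.34 CPM and the 6 B cell markers to at most 5.72 CPM in any library. Of the alveolar cell markers, Sftpc, Sftpb, Sftpa1 and Ager were at most 0.301, 0.436, 0.0485 and 1.04 CPM in any library. Abca3 (51.6 to 78.3 CPM), Pdpn (230 to 388 CPM) and Aqp5 (2.45 to 18.6 CPM) were higher. The 6 endothelial markers summed to 9.09 to 10.4 CPM in PDK4-IN, 19.7 to 23.9 CPM in Aged and 6.17 to 8.68 CPM in Young libraries. In bulk RNA, fewer cells of a type and less RNA per cell cannot be told apart. The part of these leukocyte, fibroblast, smooth muscle and endothelial markers in the proteasome results was not tested.

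The 44 genes took 0.613%, 0.667% and 0.687% of the counts in the PDK4-IN libraries, 0.557%, 0.552% and 0.556% in Aged, and 0.593%, 0.596% and 0.677% in Young. Aged libraries were lowest and close to each other, and Young replicate 3 lay within the range of the PDK4-IN libraries. The libraries also differed in how the level of a gene depended on its length. The slope, in log2 units for each doubling of gene length, was −0.0059, −0.0984 and −0.142 in PDK4-IN replicates 1, 2 and 3, 0.054, 0.0667 and 0.06 in the Aged replicates, and 0.0672, 0.0603 and −0.0616 in the Young replicates. PDK4-IN replicates 2 and 3 and Young replicate 3 therefore stood apart by relatively more RNA of short genes, and the proteasome genes are short, with a median length of 1527 bases against 2806 bases over the genes tested for Aged against Young. The members are therefore also given with the trend on gene length removed from each library, whereas the subunit ratios and the related genes are given as deposited only.

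**Figure D1:**
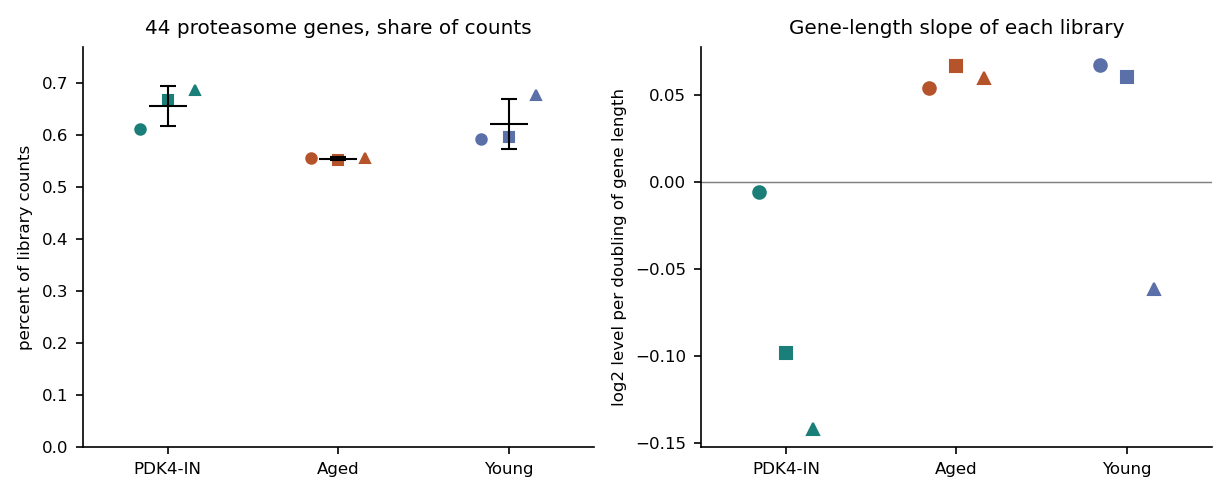
Left, the summed counts of the 44 proteasome genes as percent of each library; right, the slope of log2 level on the doubling of gene length. Points are libraries (circle, square and triangle for replicates 1, 2 and 3), and bars on the left give the mean and SD; Aged libraries lie between 0.552% and 0.557%, and the slope is negative in the 3 PDK4-IN libraries and in Young replicate 3.

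Levels of different genes were compared as deposited TPM, which is scaled for length. Constitutive core and cap subunits were strongly expressed, with group means in the Aged libraries of 85.5 to 315 TPM for the 7 alpha subunits, 150 to 334 TPM for the 7 constitutive beta subunits, 113 to 263 TPM for the 6 ATPases and 92.6 to 404 TPM for the 11 non-ATPase subunits of the cap. Psmd8, a cap subunit, was the most abundant member, at 490 ± 10.01 TPM in PDK4-IN, 404 ± 3.67 TPM in Aged and 463 ± 9.63 TPM in Young (SD, n = 3 each). The immunoproteasome subunits were scarcer. Psmb8 averaged 39.3 ± 2.93 TPM in PDK4-IN, 67.0 ± 1.67 TPM in Aged and 44.4 ± 5.17 TPM in Young. Psmb10 averaged 33.9 ± 1.93, 39.5 ± 1.64 and 47.8 ± 4.56 TPM in the same order, and Psmb9 was the rarest of the 3, at 8.09 ± 0.807, 10.96 ± 0.992 and 7.94 ± 0.617 TPM. In the Aged group Psmb8 was thus the highest of the 3 beyond the spread of the libraries, whereas in Young Psmb8 and Psmb10 did not differ beyond their spread. Psma8, the alpha subunit of the testis, had 7 to 24 counts in a library, and Psmb11, the beta subunit of the thymic cortex, had 0 to 6 counts.

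Aged libraries were first set against Young libraries, to ask how the RNA levels of the members differed between them. Psmb8 and Psmb9 rose while much of the constitutive core and cap fell. Of the 43 members tested, 2 were called higher (4.65%, against 21.4% of all 16123 genes tested) and 20 lower (46.5%, against 19.0% of all genes), and the median log2 fold change was −0.16 over the members and 0.01 over all genes. The 20 that fell comprised 6 of 7 constitutive beta subunits, 5 of 6 ATPases, 7 of 11 non-ATPase cap subunits and 2 of 7 alpha subunits. The assembly chaperones Psmd5, Psmd9 and Psmd10, which help to build the cap, had log2 fold changes of 0.04, −0.01 and 0.12 and did not pass the test, nor did the 5 activator and inhibitor genes, whose values lay between −0.12 and 0.11. Psma8, at 0.91 ± 0.38 (SE) on few counts, did not pass either (adjusted p = 0.0786).

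Psmb8, the immunoproteasome subunit in the place of Psmb5, had 20.3, 25.5 and 24.8 CPM in PDK4-IN libraries, 32.5, 34.0 and 34.7 CPM in Aged libraries and 23.6, 19.8 and 26.7 CPM in Young libraries. Each Aged library was above every library of the other groups, which overlapped each other. The log2 fold change of Aged over Young was 0.52 ± 0.10 (SE, adjusted p = 0.00223). Psmb9, which takes the place of Psmb6, had 7.42, 5.78 and 6.77 CPM in PDK4-IN, 8.14, 7.56 and 8.77 CPM in Aged and 5.65, 4.97 and 6.84 CPM in Young. Its Aged libraries again lay above the others, by a small margin, with a log2 fold change of 0.48 ± 0.14 over Young (adjusted p = 0.0233). That call was lost without Young replicate 1 (adjusted p = 0.0609), Young replicate 2 (0.0861), Aged replicate 1 (0.0699) or Aged replicate 3 (0.0903). Psmb10, in the place of Psmb7, had 15.3, 17.3 and 18.98 CPM in PDK4-IN, 19.3, 18.1 and 21.6 CPM in Aged and 21.0, 20.3 and 25.4 CPM in Young. Its groups overlapped between Aged and Young and it did not pass the test (log2 fold change −0.19 ± 0.11, adjusted p = 0.174, and −0.09 without Young replicate 3), so the 3 immunoproteasome subunits did not move together with age.

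Of their constitutive partners, Psmb5 had 92.3, 109 and 116 CPM in PDK4-IN libraries, 83.9, 77.6 and 82.4 CPM in Aged libraries and 90.9, 90.2 and 109 CPM in Young libraries. The Aged libraries were the lowest (log2 fold change over Young −0.26 ± 0.08, adjusted p = 0.0235), although without Aged replicates 1, 2 or 3 the adjusted p was 0.0558, 0.102 and 0.0635. Psmb7 had 142, 159 and 165 CPM in PDK4-IN, 117, 118 and 113 CPM in Aged and 148, 145 and 167 CPM in Young. It had the largest fall with age among the members (−0.42 ± 0.06, adjusted p = 5.2e-04). Psmb6 had 119, 149 and 153 CPM in PDK4-IN, 126, 119 and 117 CPM in Aged and 115, 113 and 151 CPM in Young, with groups that overlapped and a log2 fold change over Young of −0.08 ± 0.10 (adjusted p = 0.554).

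**Figure D2:**
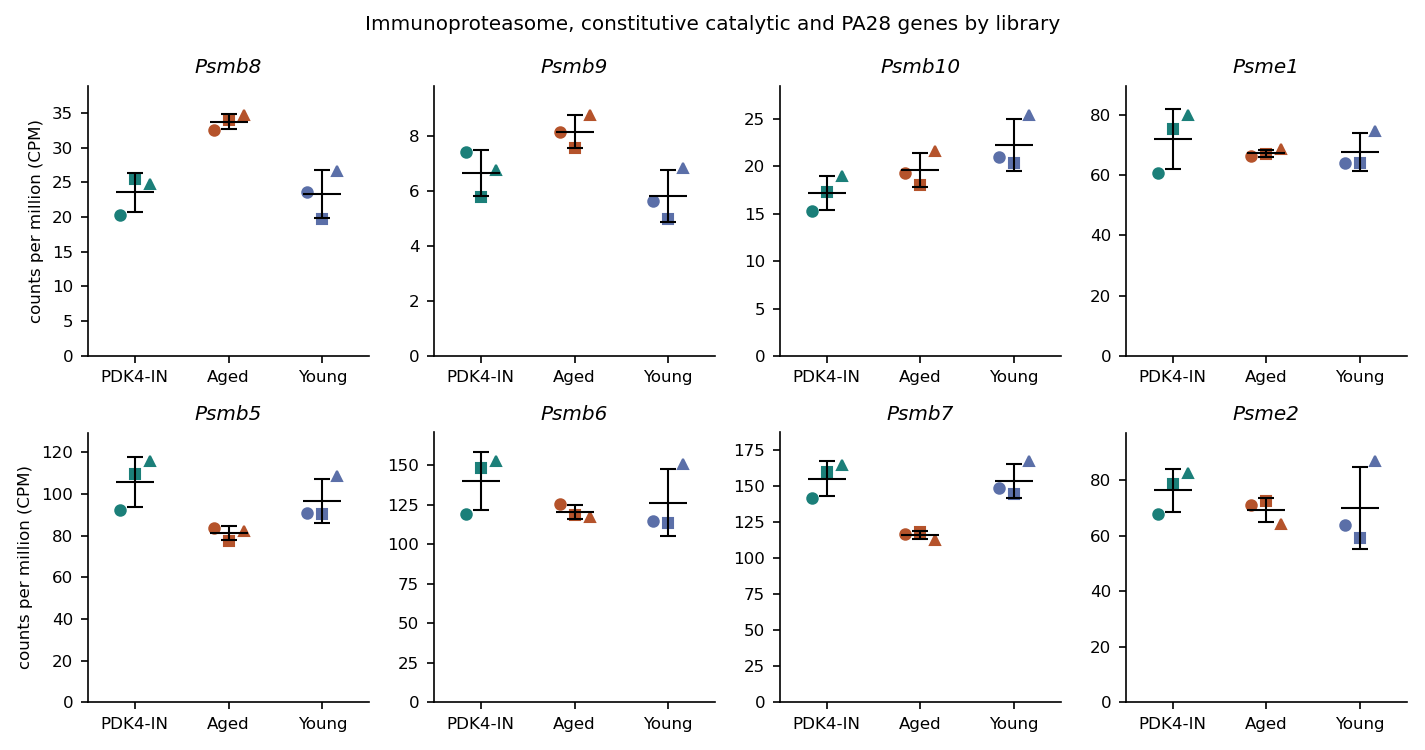
Level of the 3 immunoproteasome subunits, their 3 constitutive partners and the PA28 genes in CPM (vertical axes from 0) in PDK4-IN, Aged and Young libraries; circle, square and triangle are replicates 1, 2 and 3, and bars give mean and SD. The Aged libraries lie above all others for Psmb8, between 32.5 and 34.7 CPM, and below all others for Psmb7, between 113 and 118 CPM.

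Next to Psmb7, the largest falls with age that met the rule for naming were those of Psmb4, Psmd6 and Psma3. Psmb4, a non-catalytic beta subunit, had 202, 233 and 249 CPM in PDK4-IN libraries, 157, 150 and 154 CPM in Aged libraries and 177, 186 and 229 CPM in Young libraries (log2 fold change of Aged over Young −0.37 ± 0.09, adjusted p = 0.00651). Psmd6, a cap subunit, had 129, 145 and 146 CPM in PDK4-IN, 115, 110 and 111 CPM in Aged and 135, 133 and 153 CPM in Young (−0.34 ± 0.06, adjusted p = 0.00204). Psma3, an alpha subunit, had 114, 126 and 136 CPM in PDK4-IN, 102, 96.3 and 98.5 CPM in Aged and 114, 118 and 139 CPM in Young (−0.33 ± 0.08, adjusted p = 0.00634). In these genes the Aged libraries did not overlap with either other group, and Young replicate 3 was the highest Young library.

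Young replicate 3 stood apart from the other Young libraries. Without it, 5 members were called higher (against 23.3% of all genes) and 24 lower (against 23.0%), the 22 members called with it among them. Leaving out an Aged library lowered the number of falls to 12, 11 and 14 without replicates 1, 2 and 3. The share of all genes called lower was 13.1%, 12.8% and 13.3% in these fits, against 19.0% with all libraries. The number of rises was 1 without Young replicate 1, Aged replicate 1 or Aged replicate 3, when Psmb8 remained (against 19.2%, 16.6% and 16.9% of all genes). Without Young replicate 2 the rises were Psmb8 and Psma8 (against 19.3% of all genes).

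PDK4-IN libraries were then compared with Aged libraries, to ask how the RNA levels of the members differed. Most constitutive subunits were higher and Psmb8 was lower. Of 43 members tested, 26 were called higher (60.5%, against 23.9% of all 16275 genes tested) and 2 lower (4.65%, against 25.7% of all genes), with a median log2 fold change of 0.25 over the members and −0.00088 over all genes. The 26 that rose comprised 5 of 7 alpha subunits, 6 of 7 constitutive beta subunits, 5 of 6 ATPases, 8 of 11 non-ATPase cap subunits, the chaperone Psmd9 and Psmf1, known as the proteasome inhibitor PI31. The 2 that fell were Psmb8 and Psme4, which encodes the activator PA200.

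Psmb8 was 0.51 ± 0.09 log2 units lower in PDK4-IN than in Aged libraries (log2 fold change −0.51, adjusted p = 0.00102), with no overlap between the groups. Psmb9 did not overlap either but did not pass the test (−0.28 ± 0.13, adjusted p = 0.0935), and Psmb10 overlapped (−0.18 ± 0.10, adjusted p = 0.176, and −0.07 to −0.26 with 1 library left out). Psme4 had 109, 102 and 94.9 CPM in PDK4-IN libraries, 122, 122 and 118 CPM in Aged libraries and 117, 117 and 97.6 CPM in Young libraries, a log2 fold change of −0.23 ± 0.06 over Aged (adjusted p = 0.0052). At 6491 bases Psme4 is the longest member, and its lowest values were in PDK4-IN replicate 3 and Young replicate 3.

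Apart from the catalytic subunits, which are described in any case, the largest rises under PDK4-IN that met the rule were those of Psmb4, Psmb3 and Psmd8. Psmb4 was 0.58 ± 0.07 log2 units above Aged (adjusted p = 9.7e-05), or 1.49-fold. Psmb3, a non-catalytic beta subunit, had 142, 169 and 172 CPM in PDK4-IN libraries, 122, 120 and 114 CPM in Aged libraries and 124, 133 and 158 CPM in Young libraries (log2 fold change over Aged 0.45 ± 0.08, adjusted p = 5.7e-04). Its fall in Aged against Young was −0.23 ± 0.08 (adjusted p = 0.0476), and the call was lost in each fit without Young replicate 2 or any Aged replicate (adjusted p = 0.0563 to 0.154). Psmd8 had 393, 422 and 455 CPM in PDK4-IN, 317, 312 and 322 CPM in Aged and 349, 351 and 404 CPM in Young (over Aged 0.43 ± 0.06, adjusted p = 1.8e-04). Against Young its Aged value was −0.23 ± 0.06 (adjusted p = 0.0156), a call lost without Aged replicate 1 (adjusted p = 0.0607) or 2 (0.0703). Of the constitutive catalytic subunits, Psmb7 rose by 0.43 ± 0.07 (adjusted p = 3.1e-04) and Psmb5 by 0.39 ± 0.08 (adjusted p = 0.00265), whereas Psmb6, at 0.23 ± 0.09, did not pass (adjusted p = 0.0507) and was called with DESeq2 (adjusted p = 0.0239), with its size factors (0.0481), with no filter (0.00129) and without PDK4-IN replicate 1 (0.36, adjusted p = 1.58e-06). Psmd6 and Psma3 rose by 0.33 ± 0.06 and 0.35 ± 0.07 (adjusted p = 0.00119 and 0.00179).

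The PA28 genes, which like the immunoproteasome subunits are known targets of interferon gamma, did not pass in the 3 comparisons with all libraries. Psme1 had 60.7, 75.1 and 79.9 CPM in PDK4-IN libraries, 66.3, 66.8 and 68.5 CPM in Aged libraries and 64.0, 64.1 and 74.7 CPM in Young libraries. Psme2 had 67.6, 78.7 and 82.4 CPM in PDK4-IN, 71.2, 72.3 and 64.3 CPM in Aged and 63.9, 59.2 and 86.7 CPM in Young. For both genes the groups overlapped, and the log2 fold changes of Aged over Young were −0.02 ± 0.07 and −0.03 ± 0.12, and those of PDK4-IN over Aged 0.11 ± 0.09 and 0.15 ± 0.08. Without PDK4-IN replicate 1, the lowest library of that group for both, the rises over Aged were called (0.25, adjusted p = 4.12e-04, and 0.26, adjusted p = 7.09e-04). Without Young replicate 3, its group’s highest library, Psme2 was called higher in Aged than in Young (0.16, adjusted p = 0.0334) and in PDK4-IN than in Young (0.27, adjusted p = 0.0318). The deposited TPM of Psme2 was less even than its counts, at 134, 258 and 153 TPM in PDK4-IN, 222, 152 and 224 TPM in Aged and 135, 126 and 166 TPM in Young.

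**Figure D3:**
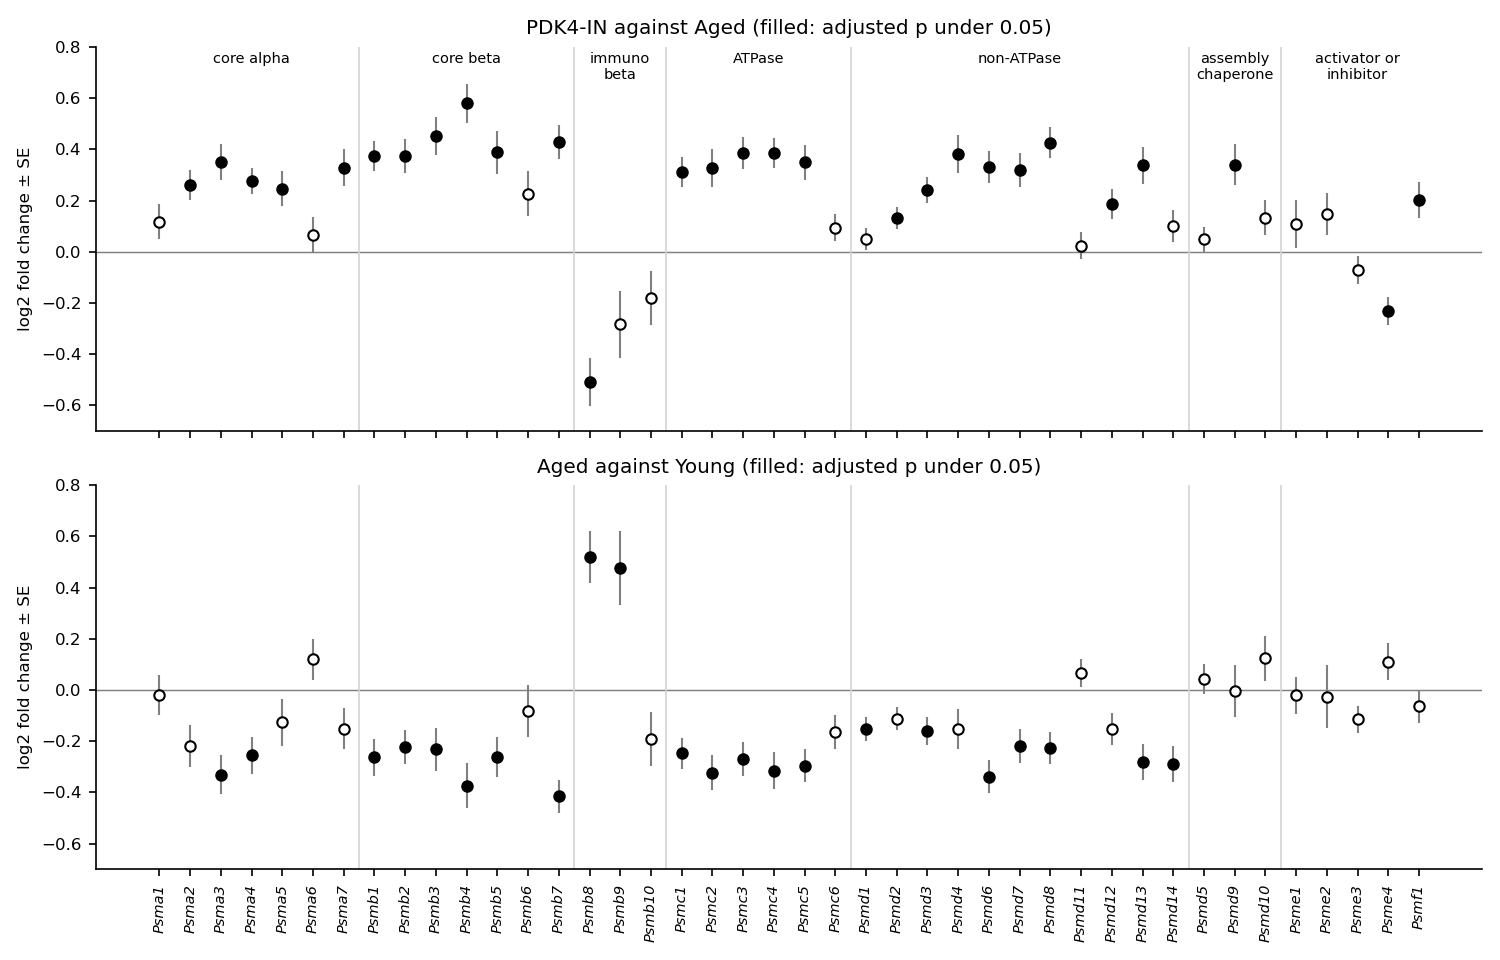
Log2 fold change with its standard error of 42 tested members (Psma8, on few counts, is not drawn) by role, for PDK4-IN against Aged (upper) and Aged against Young (lower), with filled points at an adjusted p under 0.05. Psmb8 stands at −0.51 in the upper and 0.52 in the lower panel, while most core and cap subunits lie above 0 in the upper and below 0 in the lower panel.

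Both comparisons use the Aged libraries, so they are not independent and their values are only set side by side. Psmd1 and Psmd14 fell with age and had log2 fold changes of 0.05 and 0.10 under PDK4-IN that did not pass. Psma2, Psma5, Psma7, Psmd2, Psmd4, Psmd12, Psmd9 and Psmf1 rose under PDK4-IN and were not called with age.

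Set against Young, in a fit on all 9 libraries, the PDK4-IN libraries differed in few proteasome genes. Of 43 tested, 1 was called higher (2.33%, against 13.3% of all 16553 genes tested) and 3 lower (6.98%, against 15.7%), and the median log2 fold change was 0.06 over the members and 0.02 over all genes. Psmb10 was lower, at −0.40 ± 0.12 (adjusted p = 0.0228), and its PDK4-IN libraries did not overlap with the Young ones. The call was lost without PDK4-IN replicate 2 (adjusted p = 0.0556). Psme3, the nuclear PA28 subunit, had 124, 131 and 119 CPM in PDK4-IN libraries, 127, 137 and 132 CPM in Aged libraries and 140, 144 and 140 CPM in Young libraries, and was −0.21 ± 0.05 from Young (adjusted p = 0.0135, and 0.0547 without PDK4-IN replicate 3). Psmd1, a large scaffold subunit of the cap, was at 236, 235 and 237 CPM in PDK4-IN and 250, 256 and 253 CPM in Young (−0.13 ± 0.04, adjusted p = 0.0457). The chaperone Psmd9 was the rise, at 35.7, 38.3 and 41.7 CPM in PDK4-IN against 28.9, 27.2 and 35.6 CPM in Young (0.31 ± 0.10, adjusted p = 0.0442). Psmd1, Psmd9 and Psme3 were named after their values were seen. The calls of Psmd1 and Psmd9 were each lost without Young replicate 1 or 2 or PDK4-IN replicate 2 or 3 (adjusted p = 0.0569 to 0.195).

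Psmb8 was at −0.02 ± 0.12 in PDK4-IN over Young (adjusted p = 0.932) and Psmb9 at 0.16 ± 0.15 (adjusted p = 0.436), with overlapping groups. The constitutive partners Psmb5, Psmb6 and Psmb7 were at 0.10, 0.12 and −0.01, and Psme1 and Psme2 at 0.06 and 0.10 (adjusted p = 0.456 to 0.912). Psmb4, Psmb3 and Psmd8 were at 0.18, 0.19 and 0.17 and Psmd6, Psma3 and Psme4 at −0.03, −0.01 and −0.15, none of these 6 past the test (adjusted p = 0.0927 to 0.965). The number called higher depended on single libraries. It was 12 without Young replicate 3 (against 16.2% of all genes) and 4 without PDK4-IN replicate 1 (against 13.5%). With edgeR it was 0 without Young replicate 1, Young replicate 2, PDK4-IN replicate 2 or PDK4-IN replicate 3. In the same order, 0, 0, 1 and 0 rises had an unadjusted p under 0.05. The share of all genes called higher was also smaller in these fits, at 7.70% to 8.50%, against 13.3% with all libraries. DESeq2 on all libraries called 1 (against 13.9%). The number called lower was 1 without PDK4-IN replicate 2 (against 10.4% of all genes, and 15.7% with all libraries).

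Within a library, the counts of each immunoproteasome subunit were set against those of its constitutive partner, a ratio that does not depend on library size. Psmb8 amounted to 22.0%, 23.3% and 21.5% of the Psmb5 counts in PDK4-IN libraries, 38.8%, 43.8% and 42.1% in Aged libraries and 26.0%, 21.9% and 24.6% in Young libraries. The Aged libraries were apart from the others, which overlapped. The mean log2 difference was −0.90 for PDK4-IN over Aged and 0.78 for Aged over Young. The ratio moved further than Psmb8 itself, as Psmb5 moved the other way in the counts as deposited. In deposited TPM the log2 differences of this ratio were −1.01 for PDK4-IN over Aged and 0.83 for Aged over Young. Psmb8 and Psmb5 differ in deposited gene length (1628 and 899 bases), so the length trend can enter this ratio. With that trend removed, Psmb5 was at 0.09 (adjusted p = 0.188) for PDK4-IN over Aged and −0.13 (adjusted p = 0.0375) for Aged over Young. Psmb9 amounted to 6.22%, 3.89% and 4.44% of Psmb6 in PDK4-IN, 6.48%, 6.37% and 7.47% in Aged and 4.91%, 4.38% and 4.53% in Young. PDK4-IN replicate 1 came close to the Aged libraries here, and the log2 differences were −0.51 and 0.55. Psmb10 amounted to 10.8%, 10.8% and 11.5% of Psmb7 in PDK4-IN, 16.5%, 15.3% and 19.1% in Aged and 14.1%, 14.1% and 15.2% in Young. The PDK4-IN libraries were below all others, with log2 differences of −0.61 from Aged and −0.39 from Young, and the Aged libraries were just above the Young ones by 0.22. In deposited TPM the Psmb10 ratio overlapped between Aged and Young. The ratios are given without a test, because an exact permutation test of 3 libraries against 3 cannot reach a p under 0.10.

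**Figure D4:**
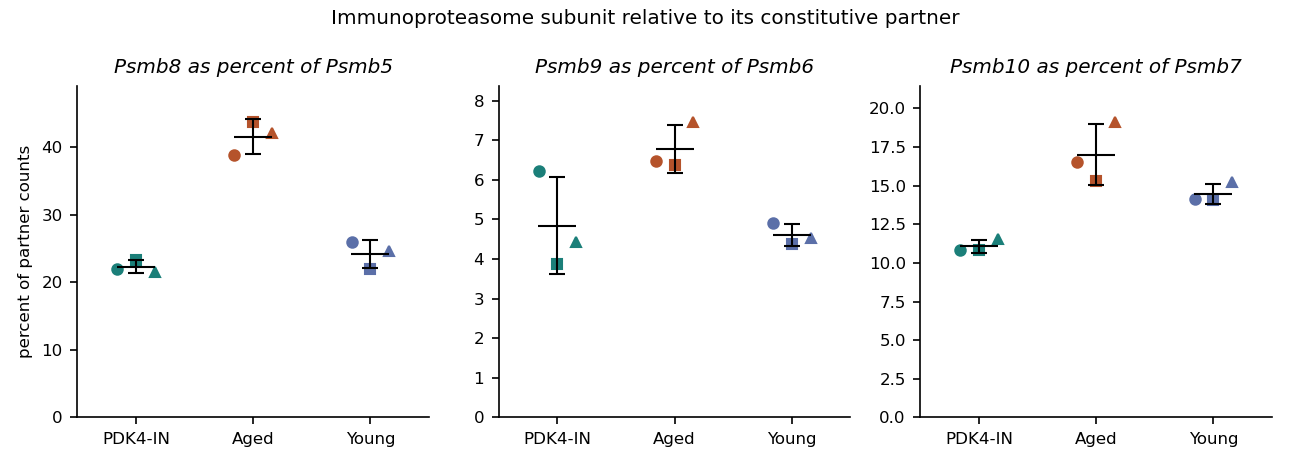
Counts of Psmb8, Psmb9 and Psmb10 as percent of the counts of Psmb5, Psmb6 and Psmb7 in each library (axes from 0), with circle, square and triangle for replicates 1, 2 and 3 and bars for mean and SD. The Psmb8 ratio is 38.8% to 43.8% in Aged libraries and at most 26.0% in any other, and the Psmb10 ratio is lowest in the PDK4-IN libraries.

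Removing the trend on gene length from each library reduced the rises of the constitutive subunits under PDK4-IN. For PDK4-IN against Aged, 20 members were then called higher (against 21.2% of all genes tested), of which 19 had been before, and 6 lower (against 23.3%), and the median fell to 0.07, against 0.25 without the correction. The 6 were Psmb8 (−0.69, adjusted p = 8.43e-06), Psmb9 (−0.50, adjusted p = 0.00879), Psmb10 (−0.41, adjusted p = 0.00184), Psma1, Psma6 and Psmd11. Psmb4, the largest rise before removal, was at 0.33 ± 0.04, next to Psma3 at 0.34. The removal used the deposited gene lengths, which are 2846 bases for Psma3 and 2911 bases for Psma2. In PDK4-IN libraries Psma3 averaged 126 CPM and 158 TPM, whereas Psma2 averaged 170 CPM and 97.2 TPM. The deposited TPM thus do not follow these lengths, and how well the removal suits Psma3 was not tested. Psmb7, Psmd8, Psmb3 and Psmd6 stayed called at 0.17, 0.23, 0.13 and 0.11, whereas Psmb5, at 0.09, did not pass (adjusted p = 0.188). The calls of Psma4, Psma5, Psma7, Psmb2, Psmd12 and Psmf1 were lost as well, and Psmf1 changed sign to −0.01. Psmb6, Psme1 and Psme2 changed sign to −0.09, −0.16 and −0.14 without passing, and the call of Psme4 was lost at 0.04 (adjusted p = 0.514).

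For Aged against Young the corrected fit called 5 members higher (against 22.9% of all genes) and 22 lower (against 22.7%), with a median of −0.12. Psmb8 and Psmb9 were at 0.58 and 0.56, joined by Psma6, Psmd10 and Psmd11, and 18 of the 20 earlier falls remained, Psmb7 at −0.31 and Psma3 at −0.34 among them. The falls of Psmb2 and Psmb3 were lost (−0.09 each, adjusted p = 0.107 and 0.138). For PDK4-IN against Young it called 1 higher (against 15.6% of all genes) and 8 lower (18.6% of the members, close to 16.4% of all genes), with Psmb10 at −0.52, Psmd9 at 0.29, and Psmb7 and Psmd6 now past the test at −0.15 each.

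Among the PDK4-IN libraries, replicate 1 had the slope nearest to the Aged libraries. A fit with that library alone against the 3 Aged libraries takes its whole spread from the Aged group, whose biological coefficient of variation was 3.55%, against 9.26% in the PDK4-IN group, so its calls are not held to the spread of the PDK4-IN group. It called 22 members higher (against 17.6% of all genes) and 3 lower, Psmb8, Psme4 and Psmb10 (against 19.0%). The median of the members was 0.15. This fit, and that of PDK4-IN replicate 1 against Young replicates 1 and 2, with 3 members higher (against 9.97% of all genes) and 5 lower (against 14.5%), were chosen after seeing the data.

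**Figure D5:**
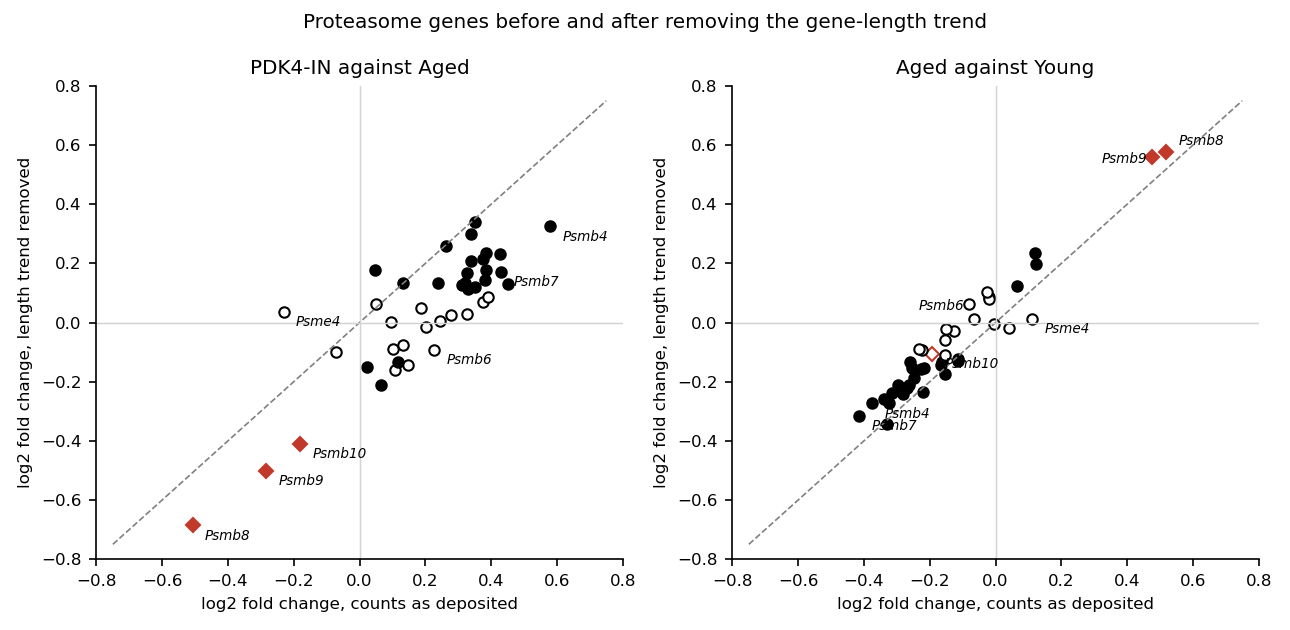
Log2 fold change of 42 tested members (Psma8 not drawn) with counts as deposited (horizontal) and with the gene-length trend of each library removed (vertical), for PDK4-IN against Aged (left) and Aged against Young (right). Diamonds are Psmb8, Psmb9 and Psmb10, filled points have an adjusted p under 0.05 after removal, and the dashed line marks equal values; on the left most points lie below that line, with Psmb8 at −0.69 after removal.

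Other parts of the system were counted from lists of related genes. Of 16 proteasome genes outside the naming rule, 14 were tested. For PDK4-IN against Aged 9 rose and 1 fell (median 0.31), and for Aged against Young 4 fell (median −0.17). The shares of all genes against which the counts of this and the following lists stand are 23.9% higher and 25.7% lower for PDK4-IN against Aged, and 21.4% higher and 19.0% lower for Aged against Young, and lists this short are coarse beside them. Pomp, the maturation factor of the core, followed the beta subunits, at 121, 138 and 148 CPM in PDK4-IN, 98.4, 89.1 and 92.8 CPM in Aged and 119, 109 and 149 CPM in Young (log2 fold change 0.55 ± 0.08 for PDK4-IN over Aged and −0.44 ± 0.10 for Aged over Young). The cap subunit Adrm1, a ubiquitin receptor, rose by 0.39 and Txnl1, a thioredoxin that binds the cap, by 0.31, while Ecpas, a proteasome adaptor, was at −0.27. Psmg1, a chaperone of core assembly, and Usp14, a ubiquitin protease on the cap, fell with age by 0.35 and 0.18 on the log2 scale.

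Among 6 genes of transcriptional control, the known activator of proteasome genes Nfe2l1 did not pass, at 533, 537 and 509 CPM in PDK4-IN, 488, 512 and 486 CPM in Aged and 512, 526 and 453 CPM in Young. Nfe2l2, the activator of the antioxidant response, was 0.33 ± 0.06 higher in Aged than in Young and lower under PDK4-IN than in Aged (−0.42), Nfe2l3, a related factor, was higher with age at no more than 1.69 CPM in a library, Ddi2 and Ngly1, which activate the Nfe2l1 protein, fell under PDK4-IN (−0.42 and −0.24), and Keap1, the inhibitor of Nfe2l2, rose by 0.21. Thus 1 of the 6 rose and 3 fell under PDK4-IN, and 2 rose with age. Of 14 genes that supply or deliver ubiquitin, 6 rose and 2 fell under PDK4-IN, and 6 fell with age. Rps27a encodes ubiquitin fused to a ribosomal protein. On the log2 scale it was 0.51 higher in PDK4-IN than in Aged, and 0.38 lower in Aged than in Young. The activating enzyme Uba6 was at −0.54 under PDK4-IN and Ubqln2, a shuttle for ubiquitinated proteins, at −0.21. Uba1, the main activating enzyme, and Vcp, the segregase that extracts ubiquitinated proteins, fell with age by 0.20 and 0.18 on the log2 scale.

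Of 12 genes of MHC class I peptide loading, 4 rose and 3 fell with age, and 4 rose and 5 fell under PDK4-IN. Tap1, the peptide transporter gene between Psmb9 and Psmb8, had 63.1, 65.4 and 64.1 CPM in PDK4-IN libraries, 48.5, 49.6 and 51.5 CPM in Aged libraries and 51.7, 51.5 and 54.3 CPM in Young libraries, and so rose under PDK4-IN (0.37 ± 0.06 over Aged) and did not pass with age (−0.09, adjusted p = 0.271). The class I heavy chains H2-D1 and H2-K1 and the class I regulator Nlrc5 rose with age by 0.70, 0.59 and 0.63. In PDK4-IN against Aged they were lower (−0.34, −0.27 and −0.45). Tapbp, which bridges transporter and heavy chain, and Erap1, the peptide trimmer, fell under PDK4-IN (−0.42 and −0.48). The lumenal chaperones Pdia3, Calr and Canx were higher in PDK4-IN than in Aged (0.42, 0.18 and 0.11). In Aged against Young these chaperones were lower (−0.28, −0.21 and −0.17).

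Of 14 genes of interferon gamma signalling, 12 were tested, of which 9 rose with age and 11 fell under PDK4-IN, with medians of 0.58 and −0.65. Ifng itself was at most 0.0494 CPM in a library. The GTPases Gbp2, Gbp3 and Gbp5 rose with age by 0.72, 0.98 and 1.87, and fell under PDK4-IN (−0.95, −1.38 and −2.01). Irf8, a transcription factor of myeloid cells, was at 0.767, 0.402 and 0.643 CPM in PDK4-IN, 16.4, 17.4 and 17.1 CPM in Aged and 0.303, 0.186 and 0.103 CPM in Young, the same order as the leukocyte markers. Irf8 and the leukocyte markers thus moved in the direction of Psmb8 in both comparisons, and their part in its level was not tested.

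Fractional counts stood in at least 1 library for 20 of the 44 members, and how reads that fit several genes or copies were divided is not given for these samples.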

How the data were processed

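The authors sequenced paired reads from total RNA of 9 libraries, and their processing notes name Bowtie 0.12.2 and build GRCm39. The quantifier and annotation are not given in the sources used here. The authors deposited expected counts (estimated counts with fractions, not normalised) and TPM for each library in a table of Young and Aged and a table of Aged and PDK4-IN, and the Aged columns were the same in both. The deposited log2 fold changes, linear fold ratios and p-values are the authors' own comparisons and were not used. Genes were joined by identifier, and 1401 of 55414 had no name.

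Counts were rounded and tested with edgeR 4.0.16 in R 4.3.3 (filterByExpr, TMM scaling, quasi-likelihood test, Benjamini-Hochberg adjustment over all tested genes, called under 0.05). Aged against Young and PDK4-IN against Aged used their 6 libraries, and PDK4-IN against Young all 9. A standard error is the log2 fold change divided by the root of the F statistic. CPM are counts per 1000000 of the library total, before TMM. Alternatives were DESeq2 1.42.0, its size factors, no filter, a replicate block, each library left out, other sets of libraries, and offsets from a smooth trend of log2 level on log2 gene length in each library. Scripts were tested on simulated counts. No 2 libraries of the same group were duplicates by a chi-square test of their counts.

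Psmb8, Psmb9, Psmb10, Psmb5, Psmb6, Psmb7, Psme1 and Psme2 are given in full. Others were named as the 3 largest changes each way among called members with at least 50 counts on average in the higher group and groups that do not overlap, and for each other list up to 3 called genes each way with the lowest p. Genes named for a comparison may also be given in another. The cell type lists are given by sums or by examples. Members and lists were chosen with earlier results of these data known. Some genes that the rule would name are not reported here.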

Additional observations from a re-analysis of the deposited data

How the results depend on the processing

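With the gene-length trend removed, 5 proteasome genes were called higher in Aged than in Young, 6 lower in PDK4-IN than in Aged and 8 lower in PDK4-IN than in Young (against 22.9%, 23.3% and 16.4% of all genes). With the replicate block and the trend removed together the counts were 4, 7 and 8 (against 22.1%, 22.3% and 17.3%), and 2 were higher in PDK4-IN than in Young (against 16.2%). The replicate block alone gave 4 higher and 4 lower for PDK4-IN against Young (against 14.7% and 17.7% of all genes). It gave 2 and 19 for Aged against Young (against 20.1% and 17.6%) and 24 and 2 for PDK4-IN against Aged (against 22.1% and 24.6%). Deviations of same-numbered libraries had r of −0.0572 to 0.0163 with Aged and 0.295, −0.0552 and 0.412 between PDK4-IN and Young, where PDK4-IN replicate 1 and Young replicate 2 had 0.303, so the numbers were not taken to pair the samples. For PDK4-IN against Young, 2 were higher with no filter (against 6.52% of all genes). With edgeR on the 6 libraries compared 0 were higher (against 9.61%), with 2 at an unadjusted p under 0.05, and DESeq2 on all 9 called 1 (against 13.9%). PDK4-IN replicate 1 alone against Young replicates 1 and 2 gave 3 higher and 5 lower. Leaving out 1 library gave 1 to 5 higher and 11 to 24 lower for Aged against Young, 22 to 34 higher and 2 lower for PDK4-IN against Aged, and 0 to 12 higher and 1 to 4 lower for PDK4-IN against Young. The shares of all genes in these fits were 16.6% to 23.3% higher and 12.8% to 23.0% lower for Aged against Young. They were 18.5% to 28.5% and 20.7% to 28.1% for PDK4-IN against Aged, and 7.70% to 16.2% and 10.4% to 20.1% for PDK4-IN against Young.

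Among the genes named by the rule, log2 fold changes changed sign as follows. With the trend removed, and with the block as well, Aged against Young gave Psmb6 0.0627 and 0.0655, Psme1 0.0851 and 0.0857, Psme2 0.1033 and 0.1088. PDK4-IN against Aged gave Psmb6 −0.0917 and −0.0941, Psme1 −0.1598 and −0.165, Psme2 −0.1428 and −0.1422, Psme4 0.0364 and 0.0361. That of Psme1 with the block was called (adjusted p = 0.0377). PDK4-IN against Young gave Psmb5 −0.0488 and −0.049, Psmb6 −0.033 and −0.0327, Psme1 −0.0785 and −0.0806, Psme2 −0.0434 and −0.0418, Psme4 0.0485 and 0.0486. With PDK4-IN replicate 1 alone, Psmb6, Psme1 and Psme2 were at −0.0223, −0.1534 and −0.0427 against Aged, and Psmb5 and Psme1 at −0.0251 and −0.1304 against Young. Psma3 was at 0.002 against Young on 6 libraries. Leaving out 1 library, the ranges that crossed 0 were, for Aged against Young, −0.161 to 0.0621 (Psmb6), −0.0711 to 0.0521 (Psme1), −0.1389 to 0.1552 (Psme2), and for PDK4-IN against Young, −0.1431 to 0.0765 (Psmb8), −0.0725 to 0.0391 (Psmb7), −0.0339 to 0.1548 (Psme1), −0.0304 to 0.2652 (Psme2), −0.0905 to 0.018 (Psmd6), −0.0795 to 0.0731 (Psma3). The cause of these shifts was not tested.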
